A study of Mus musculus with 2 samples.

Results

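These results concern the cells with the lowest level of cell-cycle RNA in a culture of mouse pancreatic cancer cells. A level C was computed for every cell as the UMIs (unique molecular identifiers, 1 per captured RNA molecule) of 18 cell-cycle genes per 10000 UMIs of the cell, and the 10% of cells with the lowest C were taken. They number 2035 of 20359 cells and are called lowest-C cells below. A cell was admitted if it had 3000 UMIs or more, 1000 genes or more and no more than 15% of UMIs from mitochondrial genes. The other 18324 cells are the comparison.

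The cells were KPCY 6419c5, a mouse line of pancreatic ductal adenocarcinoma that carried BASELINE, a lineage recorder, and had been transfected with Cas12a-ABE, an adenine base editor built on the nuclease Cas12a. Single cells were sorted and grown into clones. Clones 76 and 84 were mixed at equal numbers after 19 days of editing and measured in 1 droplet library, so every cell compared here shares the line, the recorder, the editor and the culture time, and no unedited control is among them. Each clone descends from 1 sorted cell, and the labels do not say which cell belongs to which clone. A second sample, of 5 pooled clones, was not analysed here. Cells of 1 library are not replicates, so no difference below was tested and no p-value is given. The intervals are exact, at 95%, and cover counting error only.

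A dividing cell passes through G1, S, G2 and M phases. In S phase it makes the enzymes that copy DNA and the histones that package it, under the control of E2F factors. In G2 and M it makes the motors, kinases and kinetochore proteins that separate the chromosomes, many of them from promoters with a CHR element and CCAAT boxes, which the MuvB complex and NF-Y bind. Cells that leave the cycle, for a time or for good, keep these genes off through the DREAM and RB complexes, and CDK inhibitors such as those encoded by Cdkn1a, Cdkn1b, Cdkn2a and Cdkn2b hold the cyclin-dependent kinases down. Lowest-C cells can hold early G1 cells and arrested cells, and C alone does not separate them.

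In all, 116505698 UMIs were spread over 22178 barcodes (range 500 to 23576 UMIs). The filter removed 1819 barcodes, and the median cell that passed had 5051 UMIs of 2234 genes. Scrublet marked 785 of them as doublets, which were kept here but given no group. The remaining cells were divided by expression, without cell-cycle, mitochondrial and ribosomal-protein genes, into group 1 (9589 cells, high in Pde10a), group 2 (9985 cells) and 6 clusters. Whether groups or clusters correspond to the clones was not tested. They serve only to ask whether a difference holds among cells closer in expression. A group still mixes clusters. Cluster 3 gave 693 of the 876 lowest-C cells of group 1 and 3686 of its 8713 other cells. Ratios within a group are therefore not matched for cluster.

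The line had epithelial markers of its label, with Epcam low outside cluster 3. Of 8 ductal epithelium markers, 6 reached 50 CPM (UMIs scaled to a total of 1000000), 1 of them, Epcam, through lowest-C cells alone. Over all UMIs of the cells, Epcam had 56.7 CPM in cluster 3 and 3.84 CPM in the other clusters. Of the 6, 3 were at least 1.5-fold higher in lowest-C cells, and the 8 summed to 6566 CPM there and 5044 CPM in the others. Krt18 (a keratin of simple epithelia) had 2394 CPM in lowest-C cells and 2035 CPM in the others. Markers of cells outside the line were near 0 in both sets. The summed level was 1.31 CPM in lowest-C cells and 1.36 CPM in the others for 10 immune markers, 1.80 and 1.62 CPM for 8 fibroblast markers, and 0.16 and 0.15 CPM for 7 endocrine markers. It was 7.53 and 4.66 CPM for 8 endothelial, 12.1 and 8.51 CPM for 8 acinar and 5.57 and 1.66 CPM for 6 erythroid markers. The erythroid sum came mostly from Hba-a1, a haemoglobin gene (4.42 and 1.38 CPM), with Hbb-bs and Hbb-bt at 0 UMIs in both sets. Kdr, Tie1, Emcn and Cldn5 of the endothelial, Cpa1, Cela2a, Cel, Pnlip and Amy2a2 of the acinar and Col1a2, Dcn and Lum of the fibroblast markers were at 0 in both sets, and Ptprc, the marker of all white blood cells, was at 0 in lowest-C cells.

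C ran from 0 to 15.8 in lowest-C cells, with a median of 8.04, and up to 231.8 in the others, with a median of 46.2. No gap lay at the threshold: the highest C inside was 15.8371 and the lowest outside 15.8378, and 153 cells lay within 1 unit below it against 170 above. The median lowest-C cell had 4 UMIs of the 18 genes, and 148 had 0. Every other cell had at least 1 such UMI, and their median was 25. The choice rests on few molecules per cell, so the set was chosen again on a random portion of each cell's UMIs and read in the UMIs left over. That choice returned 1643 of the 2035 cells (80.7%), a share raised by the molecules that both choices used.

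The clusters differed in the shape of C. In cluster 3 (4379 cells, led by Tm4sf20, S100g, Nepn and Epcam) C had a low point: 267 cells lay between 0 and 5, 137 between 20 and 25, and 311 between 70 and 75. In cluster 1 (6397 cells, led by Mal, Krt14, Itgb6 and Sprr1a) there was a shoulder, with 294 cells between 5 and 10, 261 between 10 and 15 and 645 between 40 and 45. Cluster 2 (5210 cells, led by Acta2, Gdf15 and Fn1) rose without a low point from 38 cells between 0 and 5 to 558 between 45 and 50. Cluster 4 (3406 cells, with Ly6c1 and Cftr among its leading genes) did so from 38 cells to 456 between 25 and 30. The threshold thus falls in the low point of cluster 3 and on a slope in cluster 4.

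**Figure D1:**
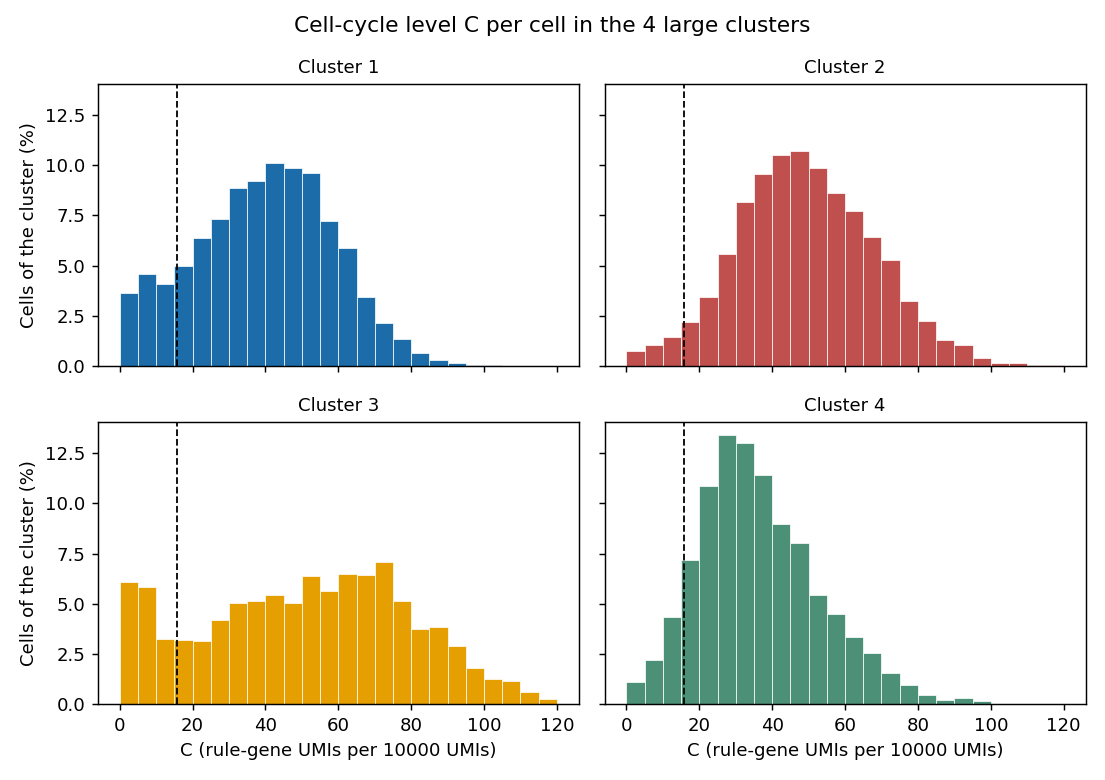
C per cell (x axis, rule-gene UMIs per 10000 UMIs) as a share of the cells of each of the 4 large clusters (y axis, %); bars are 5 units wide and the dashed line marks the threshold. Cluster 3 has a second peak at low C with a low point but no gap above it, cluster 1 a shoulder, and clusters 2 and 4 a single peak.

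Lowest-C cells were most frequent in cluster 3, where they made up 15.8% of cells (interval 14.8 to 16.9%), and in cluster 1, with 13.2% (12.4 to 14.03%). They made up 8.66% of cluster 4 (7.74 to 9.66%) and 3.51% of cluster 2 (3.03 to 4.05%). The intervals of these 4 clusters do not overlap. Clusters 5 (168 cells) and 6 (14 cells) held 2 lowest-C cells each. By group the shares were closer, 9.14% of group 1 (8.57 to 9.73%) and 11.4% of group 2 (10.8 to 12.1%). Group 1 holds clusters 2 and 3. Among lowest-C cells with a group, 43.4% were of group 1, against 49.6% of the other cells. In cells with at least 6000 UMIs, 29.98% of lowest-C cells with a group were of group 1, against 39.1% of the other cells. With the lowest 5% of cells taken, 51.0% were of group 1 (interval 47.9 to 54.2%), so its lower share did not hold there. With the lowest 20% it was 36.9%. The clusters were made from genes that include Sprr1a, Epcam, S100g and Tm4sf20, which were themselves higher in lowest-C cells, so these shares describe the cells and are no independent measurement.

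Depth moved with membership. Lowest-C cells had a median of 4319 UMIs and the others 5139, and lowest-C cells made up 23.9% of the shallowest decile of all cells by UMIs and 3.59% of the deepest. Among cells with over 5000 UMIs, they made up 9.88% of cluster 3, 8.18% of cluster 1, 4.01% of cluster 4 and 2.39% of cluster 2. The intervals of clusters 3 and 1 overlapped there (8.495 to 11.4% and 7.40 to 9.02%). Cluster 1 had the higher share of the 2 both in the shallowest decile, with 47.6% against 34.0% in cluster 3, and in the deepest, with 6.60% (4.97 to 8.56%) against 3.80% (1.75 to 7.09%). All levels below come from cells thinned at random to 3000 UMIs each, given as CPM of the summed UMIs, and ratios are log2 of lowest-C cells over other cells.

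**Figure D2:**
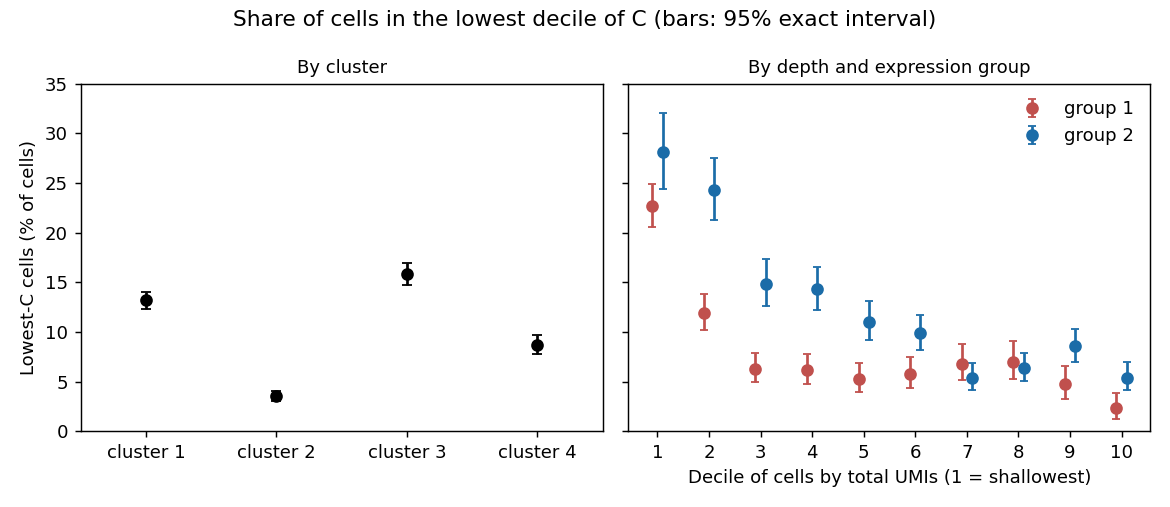
Share of cells that are lowest-C cells (y axis, % with exact 95% intervals), by cluster (left) and by decile of total UMIs within groups 1 and 2 (right). The share is 15.8% in cluster 3 and 3.51% in cluster 2, and it is highest among the shallowest cells of both groups.

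The 18 genes that chose the cells are given as a description. The 9 S-phase genes (the replicative helicase subunits Mcm2 to Mcm7, the DNA clamp Pcna and the nucleotide-synthesis genes Tyms and Rrm2) had 439 CPM in lowest-C cells and 1217 CPM in the others, a ratio of -1.47. The 9 G2/M genes had 371 and 3618 CPM, a ratio of -3.28. Top2a, the topoisomerase that untangles DNA before division, had 28.7 and 637 CPM (-4.47), the lowest ratio of the 18. Mcm6 had 48.8 and 76.6 CPM (-0.65), the ratio nearest to 0. The G2/M genes thus hold most of the rule's UMIs in the other cells.

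Outside the 18 genes, 3705 genes had at least 50 CPM in either set. Of these, 164 (4.43%) were at least 1.5-fold higher in lowest-C cells and 215 (5.8%) at least 1.5-fold lower. The median log2 ratio over all 3705 was 0.05. Within group 1, 388 (10.5%) were higher and 362 (9.77%) lower, and within group 2, 67 (1.81%) were higher and 173 (4.67%) lower. Both groups gave the same call for 51 genes higher (1.38%) and 160 lower (4.32%), and 2 genes were higher in group 1 and lower in group 2. These were the glutathione transferase Gstt1, with 133.6 against 50.3 CPM in group 1, and the predicted gene Gm5886, with 3630.1 against 1369.9 CPM there. In group 2 both were at low levels, 1.17 against 1.88 CPM for Gstt1 and 16.6 against 27.0 CPM for Gm5886. They were named after their values were seen. The genes that reached 50 CPM through lowest-C cells alone numbered 306, and 268 did so through the other cells alone.

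The count of higher genes depended on which cells were compared. It was 64 in cells with at least 6000 UMIs, 79 with the lowest 10% taken within each cluster, and 58 without cells rich in Malat1 or mitochondrial RNA, whereas the count of lower genes was 149, 158 and 156.

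Replication genes that the rule did not use were lower as well. Of 60 such genes, 32 reached 50 CPM, 21 of them through the other cells alone, and 30 of the 32 were at least 1.5-fold lower and 0 higher, with a median ratio of -1.09. Their summed level was 2003 CPM in lowest-C cells and 4380 CPM in the others (-1.13, interval -1.15 to -1.10), with -1.38 in group 1 and -0.90 in group 2. Dbf4, the activator of the kinase that fires replication origins, had 31.3 and 123 CPM (-1.98). Tk1, the thymidine kinase of S phase, had 44.2 and 139 CPM (-1.65), and the maintenance DNA methyltransferase Dnmt1 had 85.0 and 190 CPM (-1.16). The E-type cyclins that drive entry into S phase were under 50 CPM but lower too: Ccne1 had 20.1 and 42.1 CPM (-1.06) and Ccne2 had 12.9 and 31.4 CPM (-1.28). The 2 genes of the 32 short of 1.5-fold were Rfc1 (-0.49), a clamp-loader subunit, and Msh6 (-0.55), a mismatch-repair gene. In cells with at least 6000 UMIs the ratio of the summed level was -0.58.

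Mitosis genes outside the rule were lower still. Of 76 genes, 49 reached 50 CPM, 40 of them through the other cells alone. These 49 were at least 1.5-fold lower, with a median ratio of -2.17. Their summed level was 2713 and 8077 CPM (-1.57, interval -1.60 to -1.55). Prc1 (ENSMUSG00000038943), which bundles the microtubules of the spindle midzone, had 13.6 CPM (10.8 to 16.9) in lowest-C cells and 227 CPM (223 to 231) in the others, a ratio of -4.06. Nusap1, a spindle-associated protein, had 5.57 and 90.4 CPM (-4.02), and the kinetochore scaffold Knl1 had 7.37 and 103 CPM (-3.81). Kif11 (ENSMUSG00000012443), the motor that pushes spindle poles apart, had 6.72 CPM (4.82 to 9.11) and 87.0 CPM (84.6 to 89.5), a ratio of -3.70. These 4 genes were lower in both groups: Prc1 by ratios of -4.36 and -3.67 in groups 1 and 2, Nusap1 by -6.23 and -3.05, Knl1 by -4.33 and -2.99 and Kif11 by -4.12 and -3.44. The group 1 ratio of Nusap1 rests on few UMIs in lowest-C cells, so its size is uncertain. Knl1 had a ratio of -2.37 in cells with at least 6000 UMIs. The cohesin protector Sgo2a (-3.53), the kinase Aurka (-3.46), the spindle-pole protein Aspm (-3.38), the kinetochore motor Cenpe (-3.34) and the motor Kif20b (-3.31) completed the mitosis genes among the 12 lowest ratios. Not every gene named for mitosis moved that far: Hmgb1, an abundant chromatin protein, had 971 and 1516 CPM (-0.64, and short of 1.5-fold in 4 of 14 other settings, with -0.37 for the lowest 20%), and the securin Pttg1, under 50 CPM in both sets, had 33.6 and 34.0 CPM with an interval of its ratio from -0.23 to 0.19.

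Promoters of these genes are shown for Prc1 and Kif11, the lowest motor and midzone genes among them whose promoters hold both elements named above. The capitals mark CCAAT (or ATTGG, its reverse complement) and TTTGAA (or TTCAAA), the core of the CHR element. Each run is 160 bases, 155 before and 5 after the RefSeq start, on the gene's strand in GRCm38.p6 (the counts are on GRCm39), at chr7:80294296-80294455 on the plus strand for Prc1 and chr19:37376227-37376386 on the plus strand for Kif11.
Prc1: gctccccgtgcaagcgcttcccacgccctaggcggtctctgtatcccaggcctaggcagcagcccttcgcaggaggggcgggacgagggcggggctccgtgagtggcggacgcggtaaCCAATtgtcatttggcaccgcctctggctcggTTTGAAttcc
Kif11: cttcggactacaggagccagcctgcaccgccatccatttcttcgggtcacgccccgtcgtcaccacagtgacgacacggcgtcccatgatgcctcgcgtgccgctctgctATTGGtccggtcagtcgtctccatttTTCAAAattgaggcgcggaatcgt
In Prc1 the matches begin 37 and 5 bases before the start, and in Kif11 45 and 19 bases before it. In windows of 250 bases before to 50 after the start, read on both strands, TTTGAA was present in 38 of the 62 mitosis-list promoters in the RefSeq table (61.3%), in 7 of 46 replication-list promoters (15.2%), in 15 of 32 promoters of replication-dependent histones (46.9%) and in 18.1% of all 27025 promoters. CCAAT was present in 45 of 62 (72.6%), 26 of 46 (56.5%), 28 of 32 (87.5%) and 37.9%. Matches of the 2 motifs can share an end letter, and each was counted by itself. A match describes these letters only and does not show binding.

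Histones made for newly copied DNA were lower, with 1 exception. Of 36 such genes, 9 reached 50 CPM, 7 of them through the other cells alone, and 8 of the 9 were lower. The linker histone H1f1 had 4.42 CPM in lowest-C cells and 82.2 CPM in the others (-4.22), and H1f5 had 29.8 and 496 CPM (-4.06). H3c3, a core histone H3, had 3.11 and 52.1 CPM (-4.06). These 3 ratios were -2.27, -2.61 and -3.34 in cells with at least 6000 UMIs. H2bc4 went the other way, with 94.8 CPM (87.3 to 102.9) and 56.6 CPM (54.6 to 58.6), a ratio of 0.74, or 0.28 in group 1 and 1.18 in group 2. The library captures RNA by its poly(A) tail, which most replication-dependent histone RNAs lack, so these levels cover only the captured RNA. Histone genes are near-identical copies and their counts are uncertain.

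The 12 lowest ratios outside all cell-cycle lists belonged to genes that are mostly known from division all the same. Depdc1a, a mitotic protein, had 8.19 and 65.7 CPM (-3.00), and Fbxo5, an inhibitor of the anaphase-promoting complex, had 15.4 and 107.5 CPM (-2.80). Pclaf, a partner of the Pcna clamp, had 30.6 and 185 CPM (-2.59). Cenpq and Spdl1 (kinetochore proteins), Kif18a (a mitotic motor), Sass6 (centriole assembly), Asf1b (a histone chaperone), Rad18 (damage tolerance at replication forks), Shcbp1 and Pbk (a mitotic kinase) had ratios from -2.81 to -1.84. Slfn9, at 23.3 and 82.0 CPM (-1.82), closed these 12, but had ratios of -0.50 with the lowest 20% of cells taken and -0.44 in cells with at least 6000 UMIs.

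The genes that hold the cycle back did not form 1 pattern. Of 22 CDK inhibitors, pocket proteins and antiproliferative genes, 5 reached 50 CPM, of which 2 were at least 1.5-fold higher and 0 lower, and the median ratio of the 5 was 0.33. Cdkn2b, 1 of the 2, reached 50 CPM through lowest-C cells alone. Of all 3705 genes, 4.43% were higher and 5.8% lower. The summed level of the list was 1270 and 1124 CPM (0.18, interval 0.14 to 0.21), with 0.29 in group 1 and 0.08 in group 2. Tob1 (ENSMUSG00000037573), an antiproliferative protein of the BTG family, had 114 CPM (105.7 to 122.8) and 63.2 CPM (61.1 to 65.4), a ratio of 0.85, or 1.23 in group 1 and 0.37 in group 2. Cdkn2b (ENSMUSG00000073802), which encodes the CDK4 and CDK6 inhibitor p15, had 67.3 CPM (60.97 to 74.2) and 40.6 CPM (38.97 to 42.4), a ratio of 0.73, or 0.93 and 0.56 by group. In cells with at least 6000 UMIs both fell short of 1.5-fold, at 0.50 for Tob1 and 0.41 for Cdkn2b, as they did with the lowest 20% of cells taken, at 0.55 and 0.51, and Cdkn2b also at 0.56 with separate UMIs for choosing and reading. Cdkn2a, at the neighbouring locus, had 534 and 426 CPM (0.33), with 0.34 and 0.28 by group. Btg1, another BTG-family gene, was higher in group 1 (0.60) and near level in group 2 (0.05).

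Several of this list stayed under 50 CPM and are given as values. Btg2, the BTG-family gene with the highest ratio of the list, had 38.0 CPM (33.3 to 43.2) and 10.4 CPM (9.61 to 11.3), a ratio of 1.86, with 2.15 in group 1 and 1.45 in group 2. Cdkn1a, the p21 inhibitor induced by p53, had 18.4 CPM (15.1 to 22.1) and 14.4 CPM (13.4 to 15.4), and Cdkn1b, the p27 inhibitor, had 43.1 and 46.9 CPM with an interval of its ratio from -0.31 to 0.06. These 2 inhibitors, often read as signs of arrest, therefore differed little or not beyond counting error over all cells. Other members were lower: the INK4 genes Cdkn2d (-1.61) and Cdkn2c (-0.71), the pocket protein Rbl1 (-0.86), and the MuvB subunits Lin9 (-1.85) and Lin54 (-1.80). The ratio of the summed level was 0.083 with cells rich in Malat1 or mitochondrial RNA left out and 0.078 in cells with at least 6000 UMIs.

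**Figure D3:**
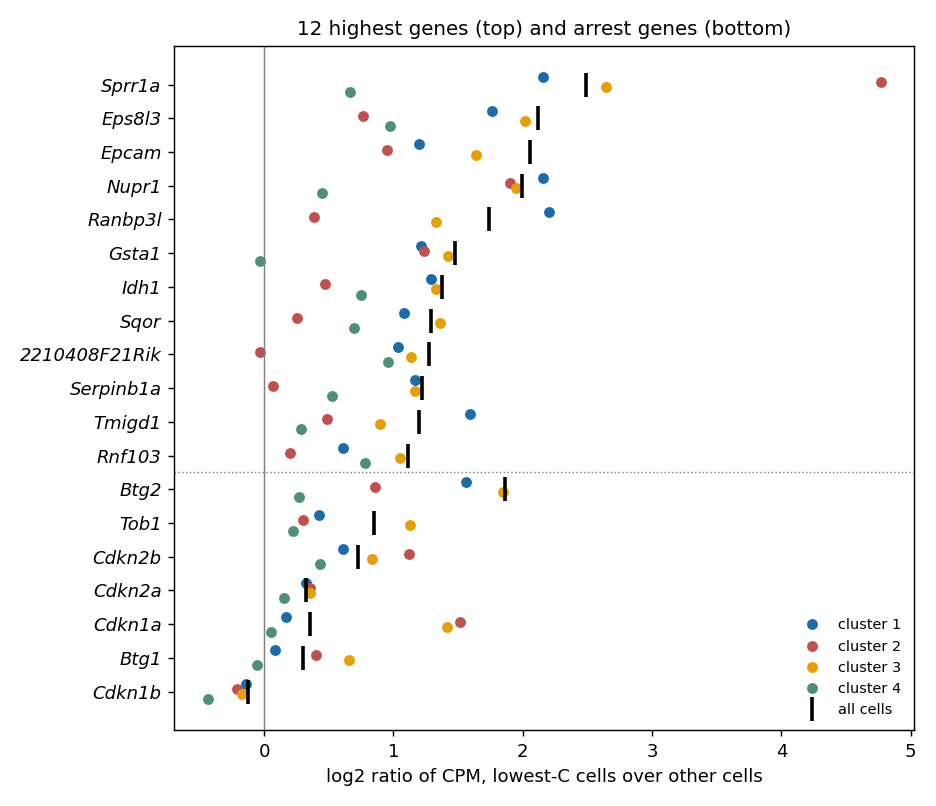
Log2 ratio of CPM in lowest-C cells over other cells (x axis) for the 12 highest genes called in both groups (top) and for genes that restrain the cycle (bottom), in all cells (bars) and within clusters 1 to 4 (points); ratios with under 4 UMIs in either set are not drawn. Sprr1a in cluster 2 lies farthest right, cluster 4 lies left of the bar for the 10 of the 12 highest genes for which it has a point, and Cdkn1b lies near 0.

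The G1 cyclins and kinases, which carry growth signals to the RB protein, differed little. None of the 6 that reached 50 CPM, of 10, was past 1.5-fold in either direction, and the median ratio was -0.12. Ccnd1 had 370 CPM (354.9 to 385.6) and 393 CPM (387 to 398), with -0.40 in group 1 and -0.04 in group 2. Ccnd2 had 227 and 198 CPM (0.19), and Cdk4 had 220 and 284 CPM (-0.37). Myc had 69.9 and 77.1 CPM (-0.14), with -0.57 in group 1 and 0.13 in group 2. Ccnd3 had 52.1 and 56.01 CPM (-0.10), with 0.06 in group 1 and -0.29 in group 2, but 21.5 and 45.9 CPM in cluster 4 (-1.09, interval -1.84 to -0.43). Over all cells these genes thus lay within 1.5-fold of the other cells.

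Ribosome biogenesis, the main biosynthetic program of growing cells, was lower, most so in cluster 3. Of 30 genes, 25 reached 50 CPM, and 6 of the 25 were at least 1.5-fold lower over all cells, 16 within group 1 and 0 within group 2. Of all 3705 genes, 5.8% were lower over all cells, 9.77% in group 1 and 4.67% in group 2. The summed level of the list was 8735 and 12247 CPM (-0.49), with -0.78 in group 1 and -0.31 in group 2. By cluster the ratio was -0.38 in cluster 1, -0.34 in cluster 2, -0.77 in cluster 3 and -0.14 in cluster 4. Lyar, a nucleolar protein, had 156 and 295 CPM (-0.92, or -0.57 in cells with at least 6000 UMIs), and the nucleolar chaperone Npm1 had 3139 and 4274 CPM (-0.45). The share of UMIs from ribosomal-protein genes had a median of 17.3% in lowest-C cells and 18.8% in the others.

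Quiescence and FOXO genes were mixed. Of 30, 11 reached 50 CPM, with 4 higher and 1 lower and a median of 0.29. In group 1, 4 were higher and 0 lower, and in group 2 none was higher and 1 lower. Of all 3705 genes, 4.43% were higher over all cells, 10.5% in group 1 and 1.81% in group 2. The summed level of the list had a ratio of 0.51 in group 1 and 0.04 in group 2 (interval -0.01 to 0.09). Within group 1 its ratio was 0.45 in cluster 3 and 0.15 in cluster 2. The higher ones over all cells were Zfp36l1 (0.82), which promotes decay of short-lived mRNAs, the glucose-uptake inhibitor Txnip (0.70), the transcription cofactor Cited2 (0.69, 232 and 144 CPM) and Gas2 (0.68), a gene named for growth arrest. In group 2 their ratios were 0.49, 0.12, 0.41 and 0.26. Of the 11, 5 reached 50 CPM through lowest-C cells alone. Zfp36l1 (0.55) and Txnip (0.39) fell short of 1.5-fold in cells with at least 6000 UMIs, and also with the lowest 20% of cells taken (0.50 and 0.37). Txnip did so also with separate UMIs for choosing and reading (0.57) and without cells rich in Malat1 or mitochondrial RNA (0.51), and Cited2 with weights by cluster and depth (0.53) and with lowest-C cells chosen within clusters (0.49). The lower one was the linker histone H1f0, often described as rising in resting cells, with 77.8 and 155 CPM (-0.99), or -0.58 in group 1 and -1.49 in group 2. Of the p53 targets 4 of 22 reached 50 CPM and none was past 1.5-fold, with a median of -0.08. Their summed level had a ratio of 0.06, but 0.48 in cluster 2 (interval 0.35 to 0.60). It was 0.02, 0.07 and 0.08 in clusters 1, 3 and 4. Of the senescence-associated secreted genes 7 of 28 reached 50 CPM and none was past 1.5-fold, with a median of 0.15. Their summed level had a ratio of 0.22, with 0.35 in group 1, 0.09 in group 2 and 0.42 in cluster 2. Calls over 4 and 7 genes cannot show an absence of change. In group 1, 2 of the 7 were higher, among them Plaur, the urokinase receptor (0.74), and Timp1, an inhibitor of matrix metalloproteinases (-0.86, at 17.5 and 31.8 CPM), was lower.

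The 12 highest ratios among genes at least 1.5-fold higher in both groups began with an epithelial gene. Sprr1a (ENSMUSG00000050359), a precursor of the cornified envelope of squamous cells, had 241 CPM (228 to 253) in lowest-C cells and 42.9 CPM (41.2 to 44.7) in the others, a ratio of 2.49, with 3.42 in group 1 and 2.21 in group 2. It was higher within each of the 4 large clusters, with 461 and 103.6 CPM in cluster 1, 228 and 8.35 CPM in cluster 2, 61.6 and 9.86 CPM in cluster 3 and 38.4 and 24.2 CPM in cluster 4. Eps8l3, a relative of the actin regulator Eps8, had 55.0 and 12.7 CPM (2.12). Epcam, an adhesion protein of epithelia, had 51.6 and 12.4 CPM (2.06), mostly from cluster 3, where it had 139 and 44.7 CPM. Its ratio was 2.37 in group 1, while group 2 had only 5.25 and 3.05 CPM, with an interval of the ratio from -0.04 to 1.53. Sprr1a was thus higher across clusters, whereas Epcam was mostly read in 1 of them.

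Nupr1 (ENSMUSG00000030717), a chromatin protein induced by stress and abundant in inflamed pancreas, had 377 CPM (362 to 393) in lowest-C cells and 94.8 CPM (92.2 to 97.4) in the others, a ratio of 1.99. The ratio was 2.15 in group 1 and 1.95 in group 2, and by cluster Nupr1 had 217 and 48.7 CPM in cluster 1, 450 and 120 CPM in cluster 2, 694 and 180 CPM in cluster 3 and 45.2 and 33.2 CPM in cluster 4. Ranbp3l had 109.9 and 33.0 CPM (1.74), also mostly from cluster 3, with 293 and 117 CPM there. The metabolic genes were Gsta1, a glutathione transferase (123 and 44.3 CPM, 1.48), Idh1, the cytosolic isocitrate dehydrogenase (107 and 41.3 CPM, 1.38), and Sqor, which oxidises sulfide in mitochondria (59.0 and 24.1 CPM, 1.29). The ubiquitin ligase Rnf103 (1.11), the membrane protein Tmigd1 (1.20), the protease inhibitor Serpinb1a (1.22) and the transcript 2210408F21Rik (1.27) were the others of the 12. In cluster 4 the 10 of these 12 genes with enough UMIs for a ratio had smaller ratios than over all cells, for example 0.67 for Sprr1a and 0.44 for Nupr1.

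The promoters of Sprr1a and Nupr1 are shown because these 2 genes were higher in both groups. In Sprr1a the capitals mark TGANTCA, the AP-1 site (a CCAAT nearer the start is left in lower case), and in Nupr1 the reverse complement of TGATGNAA, the composite site of C/EBP and ATF factors. The runs are laid out as above, at chr3:92485877-92486036 on the minus strand for Sprr1a and chr7:126625466-126625625 on the minus strand for Nupr1.
Sprr1a: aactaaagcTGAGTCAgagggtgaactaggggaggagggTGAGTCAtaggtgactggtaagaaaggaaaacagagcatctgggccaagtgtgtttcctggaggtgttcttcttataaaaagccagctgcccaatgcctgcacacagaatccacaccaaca
Nupr1: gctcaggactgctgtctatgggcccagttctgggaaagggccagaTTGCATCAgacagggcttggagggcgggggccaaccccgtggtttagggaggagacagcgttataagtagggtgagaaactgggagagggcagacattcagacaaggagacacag
The AP-1 matches of Sprr1a begin 146 and 116 bases before the start, and the match of Nupr1 begins 110 bases before it. TGANTCA was in 7.93% of all promoters, 5 of 19 promoters of the squamous and keratin list (26.3%) and 0 of 62 of the mitosis list. TGATGNAA was in 4.06% of all promoters. The 2 motifs can share letters, and each was counted by itself.

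Other epithelial genes were higher in part. Of 31 squamous and keratin genes, 10 reached 50 CPM, with 5 higher (6 in group 1 and 3 in group 2), 0 lower and a median of 0.50. Besides Sprr1a the higher ones were the desmosome and junction genes Jup (101 and 57.1 CPM, 0.82) and Dsp (117 and 67.9 CPM, 0.79) and the keratins Krt20 (117 and 74.9 CPM, 0.64) and Krt19 (1587 and 1047 CPM, 0.60). S100a7a had 213 and 212 CPM (0.01) and Krt7 858 and 705 CPM (0.28), so the list did not move as 1 block. Of 26 gastric, mucin and ductal genes, 11 reached 50 CPM, with 5 higher, 0 lower, a median of 0.57 and a summed level of 4546 and 2931 CPM (0.63). In these lists 2 of the 10 and 3 of the 11 genes reached 50 CPM through lowest-C cells alone, so these counts lean upward by the filter. Of all 3705 genes, 4.43% were higher, 10.5% in group 1 and 1.81% in group 2. Both lists were chosen with earlier results of these data known. Tm4sf20, S100g and Epcam of the gastric, mucin and ductal list lead cluster 3, so their calls are not independent of the shares by cluster. The sums do not depend on the 50 CPM filter. The squamous and keratin list had ratios of 0.53 in group 1, 0.27 in group 2 and 0.11 in cluster 4. For the gastric, mucin and ductal list they were 1.02, 0.34 and 0.12, with 0.96 in cluster 3 and 0.29 in cluster 2.

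The higher genes of the gastric, mucin and ductal list were Tm4sf20, S100g, Epcam, Lgals4 and Ctse. Tm4sf20, a membrane protein of intestinal epithelium, had 59.8 CPM (53.8 to 66.2) and 10.4 CPM (9.59 to 11.3), a ratio of 2.52, and S100g, a calcium-binding protein of absorptive epithelium, had 297 CPM (284 to 311) and 67.8 CPM (65.7 to 70.0), a ratio of 2.13. Both were group 1 genes: in group 2 Tm4sf20 had 0.58 and 0.72 CPM and S100g 7.01 and 4.98 CPM. Lgals4, an intestinal galectin, had 1073 and 607 CPM (0.82), with 1.57 in group 1 and 0.25 in group 2. Tm4sf20, S100g and Epcam also lead cluster 3, where 15.8% of cells were lowest-C cells. With the other cells weighted to the clusters and depths of lowest-C cells, the ratio of Epcam was 1.48. Within group 1 the ratios were 2.76, 2.38 and 2.37. Tm4sf20 had 1.79 and S100g 1.36 in cells with at least 6000 UMIs, and without cells rich in Malat1 or mitochondrial RNA 1.60 and 1.10.

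Lysosome and autophagy genes were somewhat higher as a list. Of 28, 18 reached 50 CPM, with 2 higher (5 in group 1 and 1 in group 2), 0 lower, a median of 0.36 and a summed level of 5080 and 3794 CPM (0.42). Of all 3705 genes, 4.43% were higher, 10.5% in group 1 and 1.81% in group 2. Sqstm1, the autophagy receptor p62, had 253 and 132 CPM (0.94), with 0.98 in group 1 and 1.02 in group 2. Gabarap, which decorates autophagosomes, had 500 and 327 CPM (0.61), and fell short of 1.5-fold in 7 of 14 other settings, with 0.44 for the lowest 20% of cells. The stress-response list of 27 ATF4 and unfolded protein response genes had 18 at 50 CPM, with Xbp1 (1.03) and Herpud1 (0.62) higher and the one-carbon enzyme Mthfd2 (-0.69) lower. Herpud1 and Mthfd2 fell short of 1.5-fold in 6 of 14 other settings each, with 0.43 for Herpud1 when the other cells were weighted by cluster and depth and -0.31 for Mthfd2 at 6000 UMIs or more. The median of these 18 was 0.12, close to that of all genes.

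Other programs showed few calls over all cells, where 4.43% of all 3705 genes were higher and 5.8% lower. Lists this short would hold few calls at these shares. None of 12 glycolysis and hypoxia genes, 8 cholesterol synthesis genes, 5 immediate early genes, 9 heat shock chaperones and 20 actomyosin and TGF-beta or YAP target genes that reached 50 CPM was past 1.5-fold over all cells. Within groups some were. Of all 3705 genes, 10.5% were higher and 9.77% lower in group 1, and 1.81% and 4.67% in group 2. In group 1 the glycolytic kinase Hk1 (0.84), the immediate early genes Junb (0.60) and Ier3 (0.61) and the focal adhesion gene Vcl (0.72) were higher, and the chaperones Hspd1 (-0.61) and Hsp90aa1 (-0.59) and the sterol-pathway enzyme Idi1 (-0.93) were lower. In group 2 the sterol-pathway enzyme Fdps (0.61), the smooth muscle actin Acta2 (0.98) and the matrix protein Thbs1 (0.65) were higher. For cholesterol synthesis the ratio of the summed level was 0.32 over all cells, 0.49 in cluster 1 and -0.32 in cluster 2. For immediate early genes it was 0.30 over all cells, 0.47 in group 1 and 0.15 in group 2. The sums of the other lists had ratios of 0.09 (glycolysis and hypoxia), -0.16 (heat shock chaperones) and 0.06 (actomyosin and TGF-beta or YAP targets). Of 6 interferon and MHC class I genes, 1 was higher, Ifi27 (0.75, or 1.13 in group 1, 0.20 in group 2 and 0.399 in cells with at least 6000 UMIs), and the proteasome subunit Psmb10 was lower in group 1 (-0.61). Gapdh had 2766 and 2761 CPM and Ldha 938 and 984 CPM.

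Signs of RNA quality moved with membership. Malat1, a long RNA kept in the nucleus, had 11438 and 6670 CPM (0.78), and Neat1, another, had 161 and 107 CPM (0.58). More than 1.5% of UMIs came from Malat1 in 21.6% of lowest-C cells (19.9 to 23.5%) and 3.32% of the others (3.06 to 3.59%). By cluster this share was 31.3 and 6.10% in cluster 3, 21.6 and 4.79% in cluster 1, 16.9 and 1.73% in cluster 2, and 2.03 and 0.19% in cluster 4. The median mitochondrial share was 2.44 and 2.41%, but it was over 5% in 4.42% of lowest-C cells and 0.72% of the others, and within group 1 in 9.59 and 1.45%. The number of genes detected in 3000 UMIs had medians of 1564 and 1562, and doublets were marked in 0.84 and 4.19%.

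With cells over 1.5% Malat1 or 5% mitochondrial UMIs left out before the lowest 10% were chosen, the ratio was -1.26 for the mitosis list and -0.83 for the replication list. The 12 highest genes had ratios from 0.66 for Tmigd1 to 1.76 for Sprr1a, with 1.20 for Nupr1 and 1.42 for Epcam. In cells with at least 6000 UMIs these 12 ran from 0.54 for Ranbp3l to 2.85 for Sprr1a. All 12 kept a ratio above 0 in both settings, but in the deeper cells Ranbp3l and Tmigd1 (0.57) fell short of 1.5-fold. The ratios were closer to 0 than in the full set, except Sprr1a in the deeper cells.

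The deciles of C show where lowest-C cells stand among all cells. Cells were ranked by C in 1 random portion of their UMIs and read in the rest, thinned to 1400 UMIs, so that no molecule served both to rank and to read. The S-phase genes of the rule had 610 CPM in the lowest decile, 1133 CPM in the next, 1204 CPM in the third and 1080 CPM in the highest. The other replication genes had 2175, 4045, 4405 and 4034 CPM at the same places. Their levels therefore step up once, between the lowest decile and the next, and then stay near level. The mitosis genes outside the rule climbed throughout, from 3018 CPM through 5088 CPM in the second decile to 12235 CPM in the highest.

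Several genes that were high in lowest-C cells had a step of the same kind in the other direction. Nupr1 had 346 CPM in the lowest decile, 115 CPM in the second, 75.8 CPM in the seventh and 128 CPM in the highest. Epcam had 55.1, 15.4, 9.82 and 21.4 CPM at these places, and Ranbp3l 97.9, 24.6, 21.8 and 90.9 CPM. For Ranbp3l the highest decile was thus nearly as high as the lowest. Sprr1a instead declined over the deciles, from 223 CPM through 77.2 CPM in the second to 12.3 CPM in the highest. The nuclear-retained list had 12182 CPM in the lowest decile, 6780 CPM in the second and 10067 CPM in the highest, and ribosome biogenesis had 8973, 11916 and 11097 CPM. Cdkn2a declined from 530 CPM through 469 CPM in the second decile to 377 CPM in the highest.

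**Figure D4:**
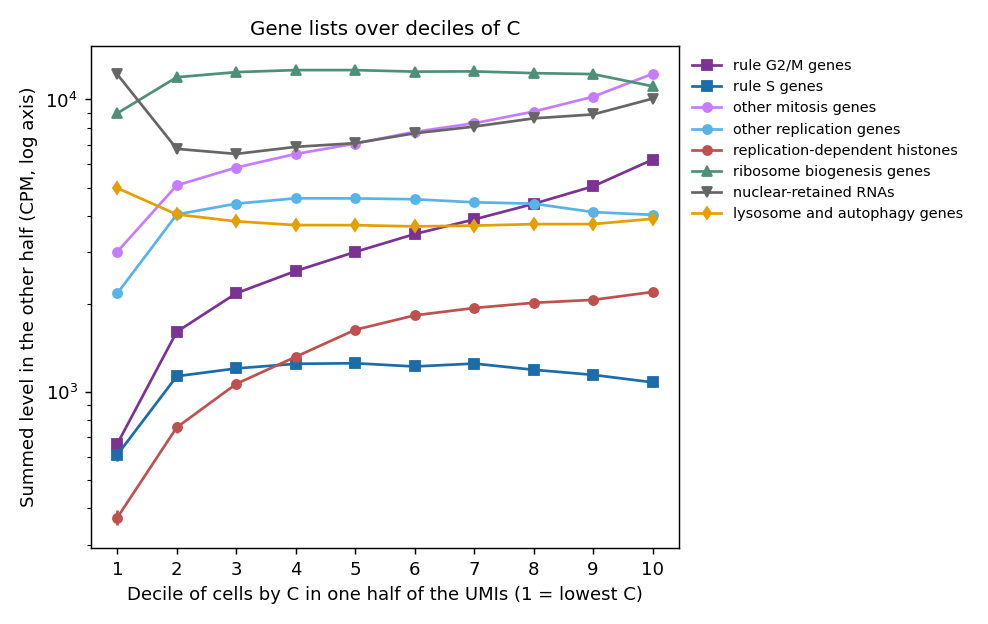
Summed level of 8 gene lists (y axis, CPM, log axis) over deciles of cells ordered by C in a separate portion of their UMIs (x axis, 1 is lowest); vertical bars are exact 95% intervals, mostly smaller than the symbols. Replication genes and nuclear-retained RNAs change most between the first decile and the second, whereas mitosis genes climb across all deciles.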

How the data were processed

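Per the file headers the matrix was written by Cell Ranger 8.0.1, and per the submitters' processing notes the build was GRCm39. The annotation and any cell filter are not given in the sources used here. The deposited values are whole-number counts of UMIs per gene and barcode, with no normalization, and the other deposited columns are names (barcodes, Ensembl identifiers and symbols).

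Cells were filtered at 3000 UMIs, 1000 genes and 15% mitochondrial UMIs, and thinned without replacement to 3000 UMIs. Genes were called at 1.5-fold among those with 50 CPM in either set. Ratios have exact conditional binomial intervals and are given only with at least 4 UMIs in each set. Intervals of CPM are Poisson and those of shares Clopper-Pearson, both exact. Doublets were marked with Scrublet in scanpy 1.11.5 (expected rate 0.08) and stayed in, without a group. Clusters came from 2000 variable genes, 30 components, 15 neighbours and Leiden (leidenalg 0.10.2) at resolution 0.5, merged by Ward's method to 2 groups. Software was numpy 2.4.6, pandas 2.3.3 and scipy 1.17.1. The steps were tested on simulated data. PCR copies were removed through UMIs by the counting.

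The rule, the members and the gene lists were chosen with earlier results of these data known. Named genes were the 18 of the rule, the 12 highest and 12 lowest ratios called in both groups, the 12 lowest outside the cell-cycle lists, all genes of the 2 lists on G1 and arrest at 50 CPM, and the extremes and most abundant gene of every other list. Other genes named were chosen after their values were seen. Alternatives changed the share of cells taken, the depth, the doublets, the mitochondrial limit, the weights of the other cells, the minimum CPM, the fold and the seed.

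Promoters and starts are those of RefSeq on GRCm38.p6, matched by symbol for 62 of 76 mitosis, 46 of 60 replication, 32 of 36 histone and 19 of 31 squamous and keratin genes.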

Additional observations from a re-analysis of the deposited data

Results flagged for a closer look

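The 18 genes of the rule also had UMIs in the 1819 barcodes that the filter removed, which enter no comparison. Their summed level there was 3167 CPM (interval 3109 to 3226), against 4547 CPM in the cells kept. This is a signal in barcodes that no comparison uses. Of these barcodes, 538 or 29.6% (27.5 to 31.7%) lay at or under the threshold of C, against 10.0% of the cells kept. Among the 1156 of them with 1000 genes and at most 15% mitochondrial UMIs but under 3000 UMIs, the share was 30.4%. Depth differs between these sets: the removed barcodes had a median of 2231 UMIs and the cells kept 5051, and in the shallowest decile of the cells kept the share was already 23.9%. The shares are not matched for depth, and whether these barcodes are cells out of cycle was not tested.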

How the results depend on the processing

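No paired analysis was possible because there is 1 library and no test. The values reported were 164 genes higher, 215 lower, 43.4% of group 1, and log2 ratios of the summed lists of -1.13 for replication, -1.57 for mitosis and 0.18 for CDK inhibitors, pocket proteins and antiproliferative genes, in that order below. The last 3 settings were chosen after seeing the data. With the lowest 5% they were 371, 345, 51.0%, -1.78, -2.08 and 0.27, and with the lowest 20% they were 48, 123, 36.9%, -0.56, -1.13 and 0.057. In cells with at least 6000 UMIs, 64 genes were higher, group 1 held 29.98%, and the lists were -0.58, -1.40 and 0.078. A minimum of 10 CPM gave 666 and 582 genes, and a fold of 2 gave 25 and 110. Replication and mitosis were -1.04 and -1.51 with C from thinned cells, -1.002 and -1.41 with separate UMIs for choosing and reading, -1.17 and -1.60 without doublets, and -1.10 and -1.62 without thinning. With a mitochondrial share up to 5% they were -1.06 and -1.52, with 40.8% in group 1. With members chosen within each group they were -1.16 and -1.60, with 48.98% in group 1. Mitosis was -1.46 with the other cells weighted to the groups and depths of the members. With weights by cluster and depth, 100 genes were higher, mitosis was -1.48 and the inhibitors 0.13. Without cells over 1.5% Malat1 or 5% mitochondrial UMIs, 58 were higher, group 1 held 37.4%, and the lists were -0.83, -1.26 and 0.083. With members chosen within each cluster, 79 were higher, group 1 held 49.03%, and the lists were -0.88, -1.37 and 0.13. The cause of these shifts was not tested. These 3 lists kept their direction in the 14 settings in which they were read, which leave out the 10 CPM minimum and the fold of 2.

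Of 2150 ratios of 154 genes chosen by the naming rule under 14 alternatives, 1430 stayed within their counting interval. The sign changed in 1 of 1160 ratios of the 83 genes past 1.5-fold, that of the endothelial marker Vwf, with 26 UMIs in lowest-C cells, from 0.87 to -0.62 at 6000 UMIs (interval -2.28 to 0.68). Another 73 of these ratios, of 23 genes, fell under 1.5-fold with the same sign, 18 of them with the lowest 20% and 18 at 6000 UMIs. The sign changed in 75 ratios of 23 genes short of 1.5-fold, whose own ratios were at most 0.398 in size. Among the genes of the G1 and arrest lists these were Ccnd1 to 0.07 with the lowest 20% and to 0.06 without Malat1-rich or mitochondria-rich cells, Cdk6 to 0.03 with the lowest 20% and to 0.07 with separate UMIs, and Ccnd3 to 0.16 at 6000 UMIs. With a median of 4 UMIs of the rule's genes, 1 or 2 molecules decide whether a cell near the threshold is included. No setting measures the spread between cultures.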
